A study of Homo sapiens with 24 samples.

Results

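Transcription factors of mesoderm and endoderm, 10 in number, were followed in differentiating H9 cells, an established human embryonic stem cell (hESC) line. The factors were GATA4, GATA6, TBXT, EOMES, MIXL1, MESP1, HAND1, TBX3, SOX17 and FOXA2. They were chosen by name, with earlier results of these data known, as every row of the array table whose gene symbol is or includes a member. Each of the 10 was measured by 1 transcript cluster, the set of array probes assigned to a gene locus, and each of these clusters carries no other symbol. They are 10 of the 23781 transcript clusters with exactly 1 gene symbol that were tested, out of 67528 clusters in all.

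Total RNA was profiled on 24 human transcriptome arrays, 3 for each of 8 groups. All cells carried a GIPZ lentivirus that expresses a short hairpin RNA (shRNA), either non-silencing (shNS) or directed at RUNX1 (shRUNX1, clone V2LHS_150257), and had been selected with puromycin. In each arm, RNA was collected from undifferentiated cells in mTeSR1 medium (0 hr) and after 8, 24 and 72 hr in KNOCKOUT DMEM with 20% fetal bovine serum, L-glutamine, 2-mercaptoethanol and nonessential amino acids. The comparison of the arms tests what the hairpin against RUNX1 changes, and the comparison of the times tests what serum differentiation changes. One hairpin sequence was used against RUNX1, so an effect of its target and an effect of that sequence elsewhere cannot be told apart. Replicates 1 to 3 are lettered A, B, C in the shNS groups and C, D, E in the shRUNX1 groups, and what a letter means is not given in the sources used here.

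In the embryo, cells of the epiblast pass through the primitive streak and become mesoderm or definitive endoderm. TBXT (brachyury), EOMES and MIXL1 are switched on in the streak, MESP1 marks the earliest cardiac mesoderm, GATA4, HAND1 and TBX3 act in the heart and other mesoderm, and SOX17 and FOXA2 act in endoderm. GATA6 acts in both layers and, in the mouse, also in the primitive endoderm. Several of these genes also have roles in extraembryonic tissue, HAND1 in trophoblast and extraembryonic mesoderm among them, so that none of them alone names a cell type.

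The array values are log2 signals as normalized by the authors, and array medians over the tested clusters lay between 6.19 and 6.33. Replicate arrays of a group correlated at a Pearson r of 0.987 to 0.997 across the tested clusters. RUNX1, the targeted gene, shares its cluster with LOC100506403 and was fitted over all clusters. Its log2 signal in shNS cells was 5.92 ± 0.04 (SD, n = 3) at 0 hr and 6.63 ± 0.09 at 24 hr, and in shRUNX1 cells 5.88 ± 0.09 and 6.26 ± 0.19. The difference between the arms did not pass the test at any time (at 24 hr -0.37, SE 0.14, limma unadjusted p = 0.0149, adjusted p = 0.264). The RUNX1 signal on these arrays therefore gives no called reduction. The study reports a knockdown of RUNX1 protein by western blot, and protein is not measured by these arrays. The undifferentiated hESC markers POU5F1, NANOG, SOX2, LIN28A, DNMT3B and CRIPTO were above the array median on all 24 arrays, with group means between 10.70 and 14.63. The signal of an array is an average over the culture, so that fewer cells of a type and less RNA per cell cannot be told apart.

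GATA6, TBX3 and HAND1 rose during differentiation, and the other 7 factors passed the test in no comparison. In shNS cells GATA6 was 4.12-fold higher at 24 hr than at 0 hr, TBX3 1.69-fold, and HAND1 1.54-fold by 72 hr. A member is called here when limma, with 1 spread estimated from all 24 arrays, gave a Benjamini-Hochberg adjusted p under 0.05 over all tested clusters and the fold change was over 1.5. At 8 hr 0 of the 10 members were called in shNS cells, where 8.41% of all tested clusters were, and 1 member (GATA6) had an unadjusted p under 0.05. At 24 hr the called members were 2 (GATA6 and TBX3), beside 15.7% of all tested clusters, and at 72 hr they were 3 (GATA6, TBX3 and HAND1), beside 15.1%. In shRUNX1 cells 0 were called at 8 hr (7.01% of all clusters, and 0 members at an unadjusted p under 0.05), 1 at 24 hr (GATA6, beside 10.9%) and 1 at 72 hr (HAND1, beside 7.52%). At 8 hr the analysis of variance that the methods name gave 1 member in shNS and 3 in shRUNX1 cells at an unadjusted p under 0.05, and 0 after adjustment in either. The median change of the 10 members was 0.08 on the log2 scale at both 24 and 72 hr in shNS cells, and over all tested clusters it was 0.01 at each. In shRUNX1 cells the members' median was 0.23 at 24 hr and 0.12 at 72 hr, over all clusters -0.02 and -0.01. The 3 later times of an arm were all set against the same 3 arrays at 0 hr, so these comparisons share their controls.

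**Figure D1:**
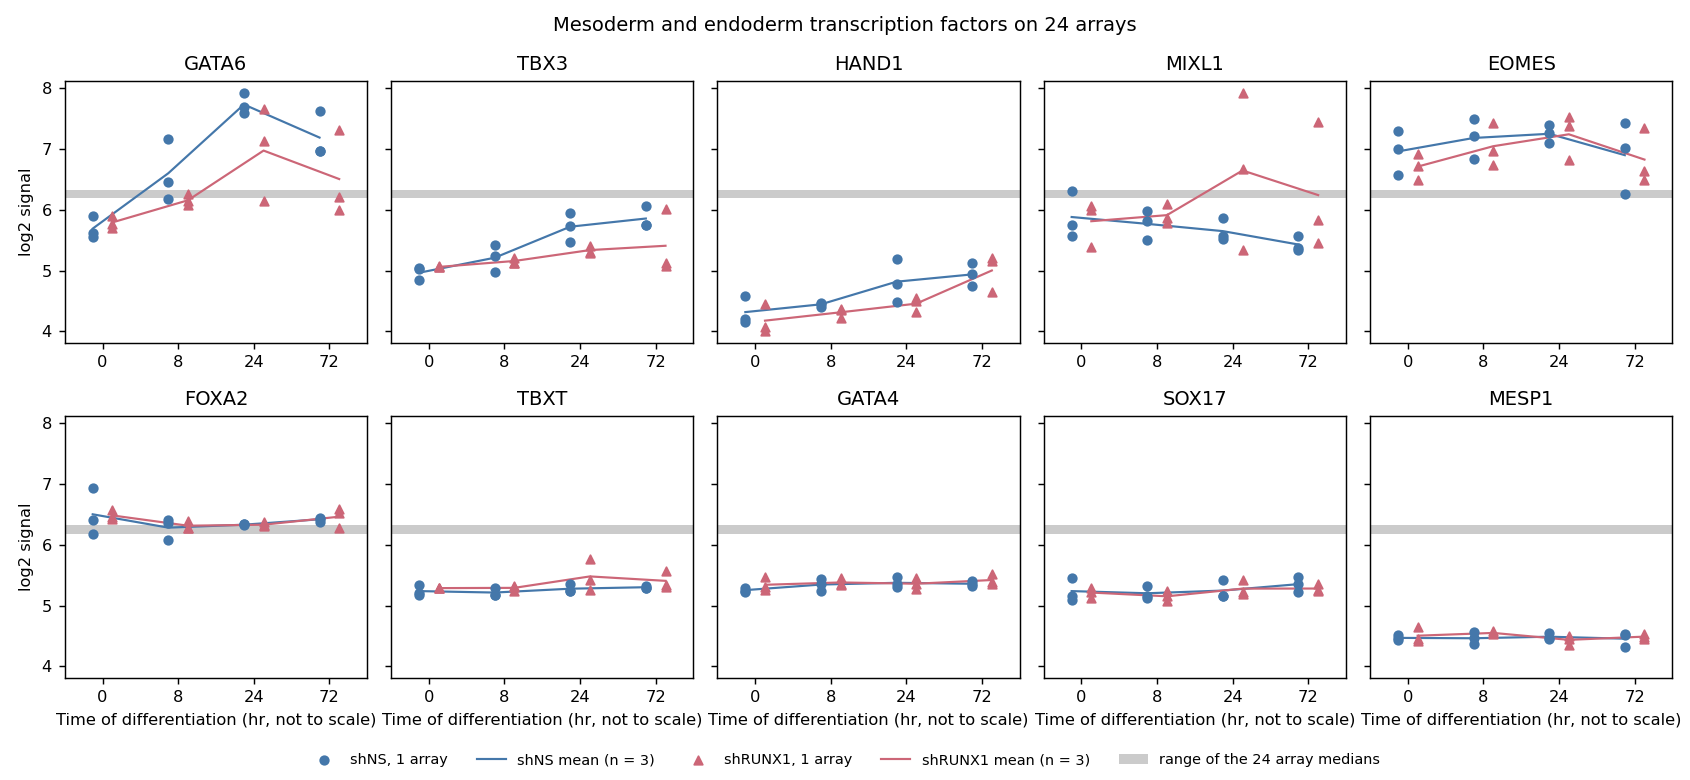
Log2 signal of each factor (y axis) on every array at 0, 8, 24 and 72 hr (x axis, not to scale) for shNS (circles) and shRUNX1 (triangles), with the mean of each group of 3 as a line and the range of the 24 array medians (6.19 to 6.33) in grey. GATA6 climbs from below the grey band to between 7.59 and 7.92 on the 3 shNS arrays at 24 hr, EOMES lies above the median of its array on all 24 arrays and FOXA2 on 21, and GATA4, MESP1, SOX17, TBXT, HAND1 and TBX3 lie below it on all 24 arrays.

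GATA6, a zinc-finger factor of mesoderm and endoderm, had the largest called change of the members. Its log2 signal on the 3 shNS arrays was 5.90, 5.56 and 5.62 at 0 hr, 7.17, 6.46 and 6.18 at 8 hr, 7.59, 7.92 and 7.70 at 24 hr, and 6.97, 7.63 and 6.97 at 72 hr. Every shNS array at 8, 24 and 72 hr lay above every shNS array at 0 hr. Of all tested clusters 31.6%, 44.5% and 42.8% did not overlap with 0 hr at these times, in either direction. Factors without a call also separated from 0 hr. In shNS cells these were GATA4 (higher) at 24 and 72 hr and MIXL1 (lower) at 72 hr. In shRUNX1 cells they were FOXA2 (lower) at 8 and 24 hr and TBXT (higher) at 72 hr. The rise was 0.91 at 8 hr (SE 0.33, limma adjusted p = 0.0681), which was not called, 2.04 at 24 hr (SE 0.33, adjusted p = 8.39e-05) and 1.499 at 72 hr (SE 0.33, adjusted p = 0.00167). The 8 hr value lay close to the threshold. It was called in 4 of the 24 fits that left out 1 array, with a replicate block, without dim clusters and with only the arrays compared, at adjusted p between 0.0291 and 0.0498.

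In shRUNX1 cells GATA6 started at a similar level (0.10 above shNS at 0 hr, SE 0.33) and its 3 arrays then spread apart. The signals were 5.77, 5.91 and 5.70 at 0 hr, 6.14, 6.26 and 6.08 at 8 hr, 6.15, 7.66 and 7.13 at 24 hr, and 6.22, 7.31 and 5.997 at 72 hr. The SD of the 3 arrays was 0.10 at 0 hr and 0.77 at 24 hr. Every shRUNX1 array at 8, 24 and 72 hr also lay above every shRUNX1 array at 0 hr. In this arm 30.7%, 34.4% and 31.3% of all tested clusters did not overlap with 0 hr. At 24 hr the array of letter C had stayed at its 8 hr level while that of letter D was as high as the shNS arrays. The rise at 24 hr was 1.18 (SE 0.33, adjusted p = 0.0135), a call that ended without the letter D array of that time (0.84, adjusted p = 0.101). At 72 hr the change was 0.71 (SE 0.33, adjusted p = 0.155) and was not called.

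GATA6 passed from below to above the array median in shNS cells. It was below on all 3 arrays at 0 hr, above on 2 at 8 hr and above on all 3 at 24 and 72 hr. In shRUNX1 cells it was above on 0, 1, 2 and 1 of the 3 arrays at the 4 times. The promoter of GATA6 is shown because the gene was called and its promoter was matched. It is the 250 bases before the RefSeq start on chromosome 18 (chr18:22169339-22169588, plus strand, GRCh38.p14), with no capitals because none of the words searched occurs in it.
GATA6: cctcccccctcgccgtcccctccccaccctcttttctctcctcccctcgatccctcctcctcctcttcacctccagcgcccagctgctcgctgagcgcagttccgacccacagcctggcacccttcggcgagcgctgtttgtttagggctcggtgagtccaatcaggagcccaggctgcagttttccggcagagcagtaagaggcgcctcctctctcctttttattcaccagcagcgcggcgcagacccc

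TBX3, a T-box repressor of limb and heart development, also rose in shNS cells, at a lower signal. While the highest group mean of GATA6 was in shNS cells at 24 hr, that of TBX3 was at 72 hr. In shNS cells its 3 arrays read 5.02, 4.84 and 5.04 at 0 hr, 5.42, 5.24 and 4.97 at 8 hr, 5.74, 5.95 and 5.48 at 24 hr, and 5.75, 6.07 and 5.76 at 72 hr. At 24 and 72 hr the 3 arrays lay above all 3 at 0 hr, where 44.5% and 42.8% of all tested clusters did not overlap. The rise was 0.76 at 24 hr (SE 0.18, adjusted p = 0.00246) and 0.89 at 72 hr (SE 0.18, adjusted p = 0.00067), and it stayed called without any single array. In shRUNX1 cells the signals were 5.07, 5.05 and 5.06 at 0 hr, 5.13, 5.22 and 5.13 at 8 hr, 5.31, 5.30 and 5.41 at 24 hr, and 5.08, 6.02 and 5.13 at 72 hr. The 3 arrays stayed close together until 24 hr, and at 72 hr the letter D array alone reached the shNS range. At 8, 24 and 72 hr the 3 shRUNX1 arrays also lay above their 3 at 0 hr. In this arm 30.7%, 34.4% and 31.3% of all tested clusters did not overlap with 0 hr. The changes were 0.28 at 24 hr (SE 0.18, adjusted p = 0.304) and 0.35 at 72 hr (SE 0.18, adjusted p = 0.200), neither called. All TBX3 signals lay below the median of their array, and the group mean nearest to it stood at -0.34 relative to that median.

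HAND1, a basic helix-loop-helix factor of the heart and of extraembryonic mesoderm, rose by 72 hr in both arms. The shNS arrays read 4.58, 4.21 and 4.16 at 0 hr, 4.47, 4.41 and 4.46 at 8 hr, 4.78, 5.19 and 4.49 at 24 hr, and 5.12, 4.94 and 4.75 at 72 hr. The shRUNX1 arrays read 4.01, 4.08 and 4.44 at 0 hr, 4.37, 4.22 and 4.35 at 8 hr, 4.51, 4.32 and 4.54 at 24 hr, and 5.20, 5.16 and 4.65 at 72 hr. In each arm the 3 arrays at 72 hr lay above the 3 at 0 hr. Of all tested clusters 42.8% in shNS and 31.3% in shRUNX1 cells did not overlap between these times. The rise to 72 hr was 0.62 in shNS (SE 0.17, adjusted p = 0.00747) and 0.83 in shRUNX1 cells (SE 0.17, adjusted p = 0.00206). At 24 hr the shNS change of 0.50 (SE 0.17, adjusted p = 0.0276) passed on p and was under the fold threshold. The shNS call at 72 hr is a narrow one, since its fold was 1.54, and 3 of the 24 fits without 1 array took it below 1.5 (lowest change 0.53). It also ended under the analysis of variance that the methods name (adjusted p = 0.0870), as did the shRUNX1 call at 72 hr (0.165). HAND1 had low signals throughout, between 4.01 and 5.20, with every group mean at -1.26 or lower relative to the array median.

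**Figure D2:**
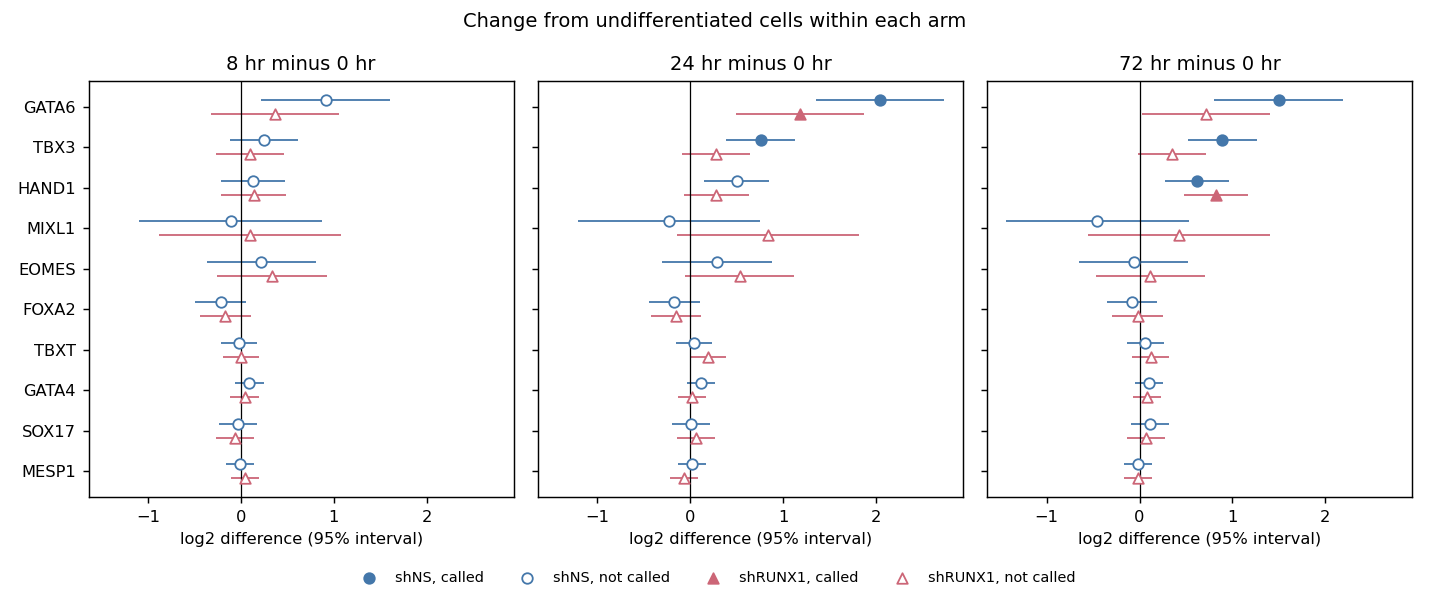
Log2 difference from 0 hr (x axis) with its 95% interval from limma for each factor (y axis) in shNS (circles) and shRUNX1 (triangles) at 8, 24 and 72 hr, filled where called. Filled points are GATA6, TBX3 and HAND1 alone, with GATA6 in shNS at 24 hr farthest from 0 at 2.04.

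The promoter of HAND1 is shown because the gene was called and its promoter was matched. It alone of the 5 promoters matched holds a GATA word, the motif bound by GATA4 and GATA6. It is the 250 bases before the RefSeq start on chromosome 5 (chr5:154478228-154478477, minus strand, GRCh38.p14), with the word in capitals, GATAA read on the other strand, 88 bases before the start.
HAND1: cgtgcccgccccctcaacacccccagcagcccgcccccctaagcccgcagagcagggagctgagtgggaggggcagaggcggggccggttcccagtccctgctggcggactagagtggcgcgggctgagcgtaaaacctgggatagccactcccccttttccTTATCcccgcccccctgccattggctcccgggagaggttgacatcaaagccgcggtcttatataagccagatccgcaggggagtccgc
RefSeq promoters were matched for 5 of the 10 members (GATA6, TBXT, EOMES, MIXL1 and HAND1), and words were searched on both strands. GATAA stands in 21% of all 27305 promoter windows of this length. The RUNX words TGTGGT and TGCGGT were in 0 of the 5 windows and in 16.1% of all, the T-box word GGTGTGA in 0 of 5 and 2.72%, and the forkhead word TGTTTAC in 0 of 5 and 2.98%. TATAAA, searched as a core promoter word, was on the reverse strand of TBXT (29 bases before the start) and EOMES (31 bases), and in 11.1% of all windows. A match is a description of the letters only, and no match covers only this window.

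The 3 streak factors differed in what could be measured. EOMES, a T-box factor needed for definitive endoderm and cardiac mesoderm in the mouse, lay above the array median on all 24 arrays, undifferentiated cells included. In shNS cells it read 6.58, 7.01 and 7.31 at 0 hr, 6.84, 7.21 and 7.50 at 8 hr, 7.26, 7.40 and 7.10 at 24 hr, and 7.43, 7.02 and 6.26 at 72 hr. In shRUNX1 cells it read 6.50, 6.72 and 6.92 at 0 hr, 6.74, 6.98 and 7.43 at 8 hr, 7.54, 6.82 and 7.38 at 24 hr, and 7.35, 6.65 and 6.49 at 72 hr. The groups overlapped at all times in both arms. The change from 0 to 24 hr was 0.29 in shNS (95% interval -0.30 to 0.88) and 0.53 in shRUNX1 cells (-0.06 to 1.12), and neither passed the test (limma adjusted p = 0.496 and 0.200).

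MIXL1, a paired-type homeodomain factor of the streak, had the widest spread within a group. The shNS arrays read 5.58, 6.32 and 5.76 at 0 hr, 5.503, 5.83 and 5.98 at 8 hr, 5.57, 5.51 and 5.87 at 24 hr, and 5.56, 5.35 and 5.38 at 72 hr. The shNS change from 0 to 72 hr was -0.45 (SE 0.47, limma adjusted p = 0.538) and was not called. In shRUNX1 cells the signals were 5.995, 5.39 and 6.06 at 0 hr, 5.78, 5.86 and 6.10 at 8 hr, 7.93, 5.35 and 6.68 at 24 hr, and 7.45, 5.45 and 5.84 at 72 hr. Of the 24 arrays 4 were above the median, 1 of shNS at 0 hr, the letter C and E arrays of shRUNX1 at 24 hr and the letter C array at 72 hr. The SD of the shRUNX1 group at 24 hr was 1.29, against 0.19 in shNS, and its change from 0 hr of 0.84 (SE 0.47, adjusted p = 0.231) was not called. Without the letter D array of that time the change was 1.49 (adjusted p = 0.0219) and called, and without the letter C arrays it was 0.29 (adjusted p = 0.643).

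TBXT, the T-box factor brachyury of nascent mesoderm and notochord, lay below the array median on all 24 arrays. Its shNS arrays stayed between 5.17 and 5.35 at all times. The shRUNX1 arrays read 5.29, 5.30 and 5.28 at 0 hr, 5.33, 5.24 and 5.31 at 8 hr, 5.76, 5.25 and 5.43 at 24 hr, and 5.58, 5.31 and 5.34 at 72 hr. The highest TBXT values were on the letter C array at 24 and 72 hr, which was also the highest of its group for MIXL1 at both times. The largest change from 0 hr was 0.19, in shRUNX1 cells at 24 hr (95% interval -0.003 to 0.39, adjusted p = 0.158).

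MESP1, GATA4 and SOX17 showed no called change and little spread. MESP1, the factor of early cardiac mesoderm, stayed between 4.32 and 4.65 over all 24 arrays. GATA4, the partner of GATA6 in heart and endoderm, ran from 5.23 to 5.53, and SOX17, an HMG-box factor of definitive endoderm, from 5.07 to 5.48. None of the 3 was above the array median on any array, and the group means of MESP1 stood at percentiles 7.5 to 10.7 of the tested clusters. The study reports that T (TBXT), MIXL1 and MESP1 were upregulated in its mesendodermal differentiation. None of these was called against 0 hr in the main fit. At a low signal, a missing call does not show that a gene was not induced. The range of the 8 group means of MESP1 was wider than that of 2.5% of all tested clusters, GATA4 than 9.5% and SOX17 than 15.7%, while GATA6 was at 97.3%, MIXL1 at 91.6%, TBX3 at 83.8% and HAND1 at 81.3%.

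FOXA2, a forkhead factor that opens chromatin in endoderm, lay close to the array median and was above it on 21 of 24 arrays. The shNS arrays read 6.41, 6.17 and 6.94 at 0 hr, 6.36, 6.08 and 6.42 at 8 hr, 6.32, 6.34 and 6.34 at 24 hr, and 6.38, 6.43 and 6.45 at 72 hr. The shRUNX1 arrays lay between 6.27 and 6.59 at all times. The change from 0 to 24 hr was -0.17 in shNS (95% interval -0.44 to 0.10, adjusted p = 0.366) and -0.15 in shRUNX1 cells (-0.43 to 0.12, adjusted p = 0.469).

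Counted by group, the factors above the array median on all 3 arrays were 1 in shNS cells at 0 hr and at 8 hr (EOMES), and 3 at 24 hr and at 72 hr (EOMES, FOXA2 and GATA6). In shRUNX1 cells they were 2 at 0, 24 and 72 hr (EOMES and FOXA2) and 1 at 8 hr (EOMES). Of all tested clusters 47.6% to 48.2% met this rule in a group. Signals of different probes are not on 1 scale, so a place above or below the median does not order the factors by abundance.

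Between the arms, 0 of the 10 factors were called at 0, 8, 24 or 72 hr. In the order of these times, 1%, 0.00421%, 0.114% and 1.6% of all tested clusters were called. At an unadjusted limma p under 0.05 there were 0, 0, 5 and 1 members at the 4 times, the 5 at 24 hr being GATA6, TBXT, MIXL1, HAND1 and TBX3 and the 1 at 72 hr TBX3. The same analysis of variance, on the 6 arrays compared, gave 0 members at an unadjusted p under 0.05 at each time. The median arm difference of the members was 0.01, -0.01, -0.01 and 0.04, beside 0.04, 0.02, 0.01 and 0.02 over all tested clusters.

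**Figure D3:**
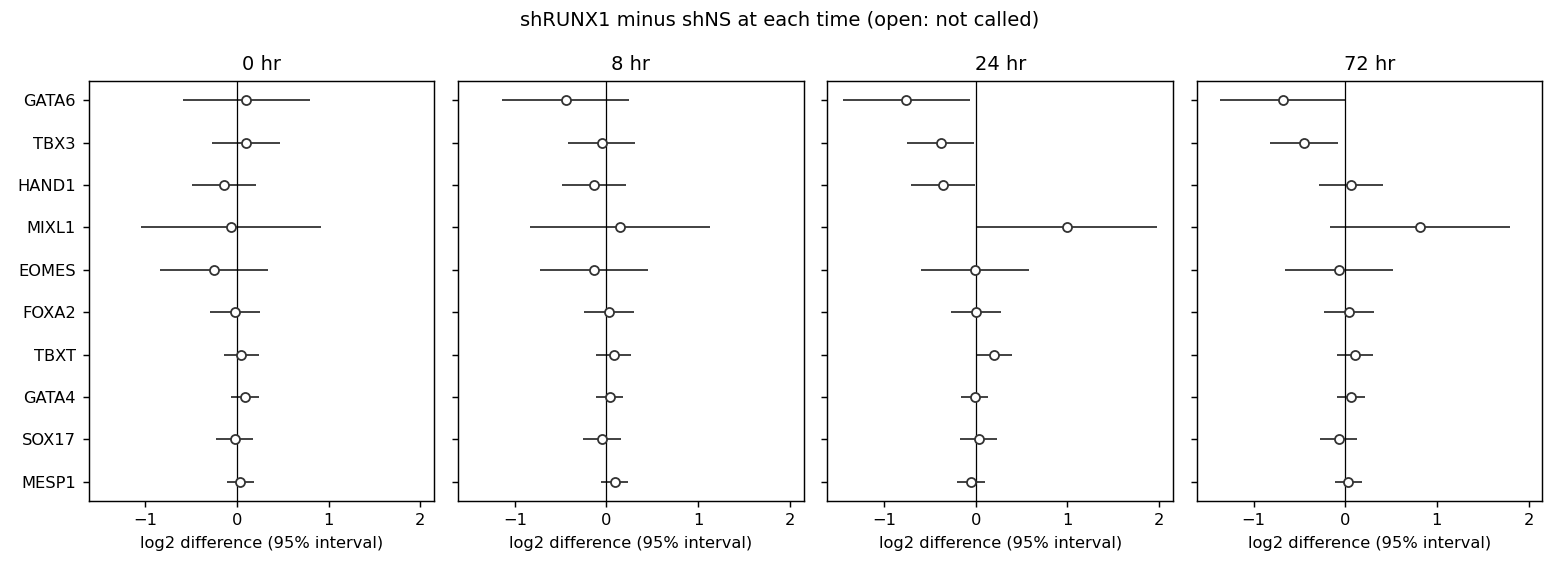
Log2 difference, shRUNX1 minus shNS (x axis), with its 95% interval from limma for each factor (y axis) at 0, 8, 24 and 72 hr. All points are open because none was called, and the points farthest from 0 are MIXL1 at 24 hr (1.00) and 72 hr (0.81) and GATA6 at 24 hr (-0.76) and 72 hr (-0.68).

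At 24 hr the mean of GATA6 was 7.74 ± 0.17 (SD, n = 3) in shNS and 6.98 ± 0.77 in shRUNX1 cells. The difference of -0.76 (SE 0.33, 95% interval -1.45 to -0.07, adjusted p = 0.260) was not called, and the arms overlapped because the letter D array (7.66) lay within the shNS range. For TBX3 the difference was -0.39 (SE 0.18, adjusted p = 0.287), and the 3 shRUNX1 arrays lay below all 3 of shNS (two-sided exact permutation p = 0.1, the smallest that 3 arrays against 3 can give). HAND1 differed by -0.36 (SE 0.17, adjusted p = 0.289), MIXL1 by 1.00 (SE 0.47, 95% interval 0.02 to 1.98, adjusted p = 0.299) and TBXT by 0.20 (SE 0.09, adjusted p = 0.289). The same exact permutation test gave p = 0.2 for GATA6, 0.3 for HAND1, 0.4 for MIXL1 and 0.2 for TBXT. For MIXL1 the SD at 24 hr was 1.29 in shRUNX1 and 0.19 in shNS cells. The intervals of GATA6 and MIXL1 use a spread from all 24 arrays and may be too narrow here. EOMES (-0.01, 95% interval -0.60 to 0.58) and FOXA2 (0.00, -0.27 to 0.27) had differences near 0.

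At 72 hr the differences were -0.68 for GATA6 (SE 0.33, adjusted p = 0.252), -0.45 for TBX3 (SE 0.18, adjusted p = 0.156), 0.81 for MIXL1 (SE 0.47, adjusted p = 0.347) and 0.06 for HAND1 (SE 0.17, adjusted p = 0.876). Whether GATA6 and TBX3 are called at this time turns on 1 array. Without the letter D array of shRUNX1 at 72 hr, GATA6 differed by -1.08 (adjusted p = 0.0354) and TBX3 by -0.75 (adjusted p = 0.00122), and both were called. At 0 hr the differences of all 10 factors were between -0.25 (EOMES) and 0.10 (GATA6), and at 8 hr the farthest from 0 was GATA6 at -0.45 (SE 0.33, adjusted p = 0.724). The 3 arrays of each arm did not overlap for 1 factor at 0 hr (TBX3, higher in shRUNX1 by 0.10), 1 at 8 hr (HAND1), 1 at 24 hr (TBX3) and 0 at 72 hr, beside 24.8%, 14.7%, 20.3% and 21% of all tested clusters.

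The test of whether the change from 0 hr itself differed between the arms called 0 of the 10 factors at 8, 24 and 72 hr, beside 0.00421%, 0% and 0.00421% of all tested clusters. At an unadjusted p under 0.05 there were 0, 0 and 1 members, the 1 being TBX3 at 72 hr (-0.54, SE 0.25, adjusted p = 0.335). This value also turns on the letter D array, without which it was -0.85 (adjusted p = 0.0108). For GATA6 the values were -0.86 at 24 hr (SE 0.47, adjusted p = 0.705) and -0.78 at 72 hr (SE 0.47, adjusted p = 0.479), and for MIXL1 1.07 at 24 hr (SE 0.66, adjusted p = 0.742). The larger rises of GATA6 and TBX3 in shNS than in shRUNX1 cells are therefore not shown to differ.

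The shRUNX1 arrays of letters C and D lay on opposite sides of their group mean for GATA6 and for MIXL1 at both 24 and 72 hr. Relative to the group mean at 24 hr, the letter C array stood at -0.83 for GATA6 and 1.28 for MIXL1, and the letter D array at 0.68 and -1.302. At 72 hr letter C stood at -0.29 for GATA6 and 1.201 for MIXL1, and letter D at 0.80 and -0.80. For TBX3 at 72 hr letter D stood at 0.61, the other letters at -0.33 and -0.28. The letter C array of shNS at 24 hr read 7.70 for GATA6 and 5.87 for MIXL1, beside group means of 7.74 and 5.65. Leaving out all 4 letter D arrays, a choice made after seeing the data, gave at 24 hr a called MIXL1 difference of 1.65 (adjusted p = 0.035), and leaving out the 4 letter C arrays gave 0.36 (adjusted p = 0.680). What sets these arrays apart was not tested.

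**Figure D4:**
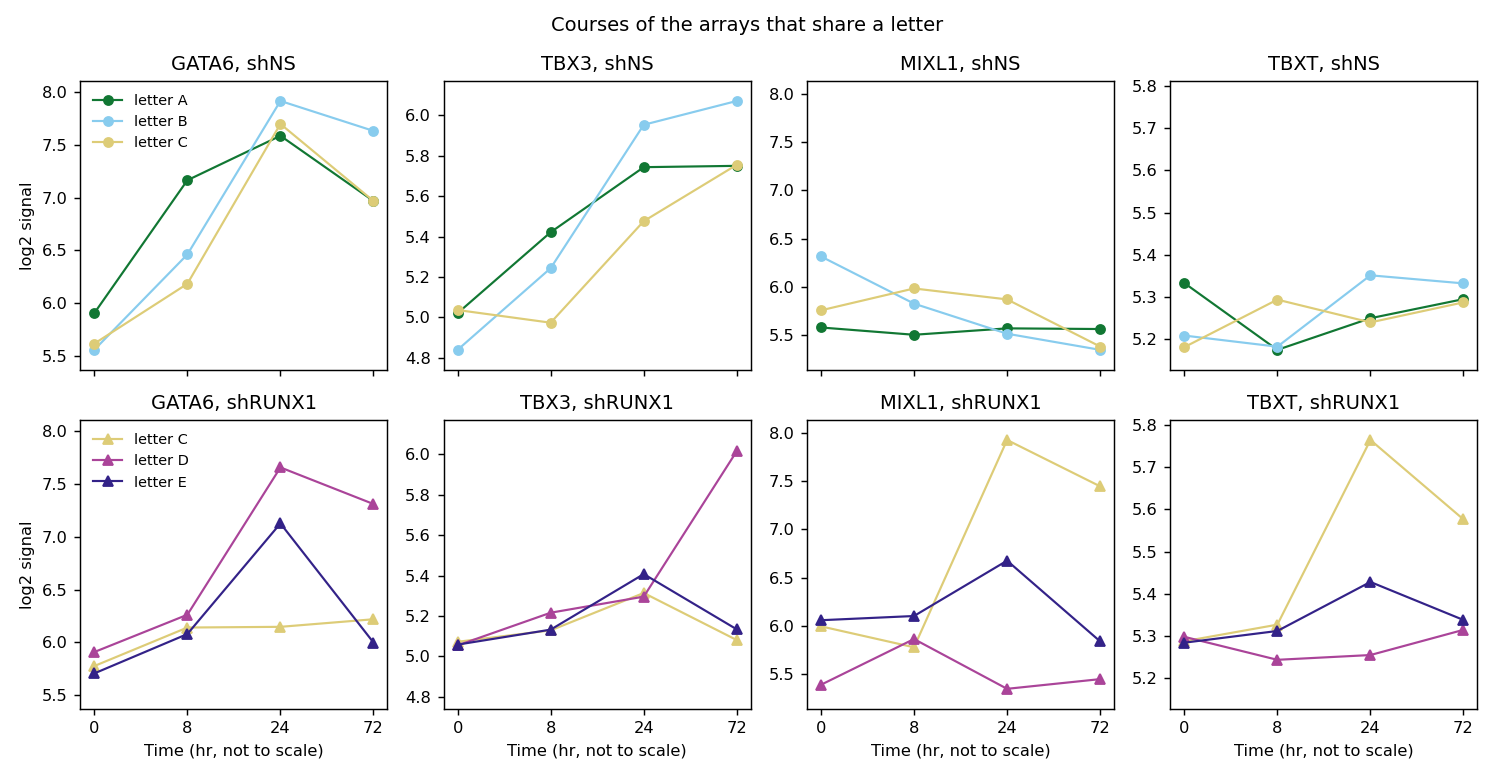
Log2 signal (y axis, 1 scale for both arms within a factor) of GATA6, TBX3, MIXL1 and TBXT at 0, 8, 24 and 72 hr (x axis, not to scale), with a line joining arrays of the same arm and letter. At 24 hr in shRUNX1 cells letter D is highest for GATA6 (7.66) and lowest for MIXL1 (5.35), and letter C is lowest for GATA6 (6.15) and highest for MIXL1 (7.93).

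The courses of the factors over the 8 group means, which come from the same arrays, gave 45 Pearson r. Those farthest from 0 were 0.89 between GATA6 and TBX3, 0.84 between HAND1 and TBX3, -0.82 between EOMES and FOXA2, 0.81 between TBXT and MIXL1, 0.71 between HAND1 and SOX17, 0.70 between TBX3 and SOX17, 0.69 between GATA6 and HAND1 and -0.69 between MESP1 and SOX17. Among all tested clusters, those most like GATA6 over the 8 group means were ATP2B4 (a plasma membrane calcium pump), RGS4 (a regulator of G protein signaling) and FANK1, all at r = 0.993. For TBX3 they were TGM2 (transglutaminase 2, r = 0.995), RHOBTB3 (0.993) and BLVRA (biliverdin reductase A, 0.990), and for HAND1 SAE1 (a subunit of the SUMO activating enzyme, 0.990), VPS39 (0.986) and CFAP206 (0.982). These are the highest of 23781 values each, over 8 points.

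Of 20 further genes of the primitive streak and mesendoderm, all were measured. In shNS cells 2 rose at 24 hr and 0 fell, where 15.7% of all tested clusters were called. They were CER1, a secreted NODAL and BMP antagonist of anterior endoderm, which rose by 4.31 (SE 0.46, adjusted p = 1.24e-06), and the streak ligand WNT3, which rose by 1.11 (SE 0.20, adjusted p = 0.000215). CER1 was higher still at 8 hr (10.99 ± 0.85, SD, n = 3, from 5.87 ± 0.13) and was 6.77 ± 0.34 at 72 hr, whereas GATA6 was still called at that time. In shRUNX1 cells CER1 rose by 3.31 at 24 hr (SE 0.46, adjusted p = 4.96e-05). At 72 hr 4 of the 20 had risen (FST, SP5, WNT8A and WNT3) and 0 had fallen, beside 7.52% of all tested clusters called. Between the arms only WNT8A was called, at 72 hr, 1.15 higher in shRUNX1 (SE 0.27, adjusted p = 0.0313). The median of the list was 0.02 in shNS cells at 24 hr, beside 0.01 over all clusters.

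Of 22 genes of mesoderm and heart, 20 were measured. In shNS cells at 24 hr 4 rose and 2 fell, among them TWIST1 (1.29, SE 0.20, adjusted p = 6.43e-05), a mesenchymal factor, BMP4 (1.24, SE 0.26, adjusted p = 0.0011), an inducer of mesoderm, and KDR, the VEGF receptor, which fell by 3.05 (SE 0.44, adjusted p = 2.52e-05). In shRUNX1 cells at 24 hr 2 rose (BMP4 and TWIST1) and 1 fell (KDR, change -3.23). Of all tested clusters 15.7% were called in shNS and 10.9% in shRUNX1 cells at this time. At 72 hr TWIST1 was lower in shRUNX1 than in shNS cells by 0.81 (SE 0.20, adjusted p = 0.0395), the only call between the arms in this list. The list median in shNS cells at 24 hr was 0.19, beside 0.01 over all clusters.

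Of 18 endoderm genes, 15 were measured, and in shNS cells at 24 hr 4 rose and 3 fell. KIT, a receptor also present on undifferentiated hESCs, fell by 2.71 (SE 0.44, adjusted p = 7.94e-05), the laminin chain LAMA1 fell by 1.77 (SE 0.31, adjusted p = 0.000222), and PRDM1 (1.17, SE 0.21, adjusted p = 0.000292) and COL4A1 (0.99, SE 0.23, adjusted p = 0.00231) rose. CXCR4, a receptor used to mark definitive endoderm, rose by 0.75 (SE 0.23, adjusted p = 0.016). In shNS cells CXCR4 was called at 8 and 24 hr and not at 72 hr, and in shRUNX1 cells it was called at no time. ONECUT1 was also called in shNS cells at 24 hr, next in size of change after KIT and LAMA1. AFP was called too, with the smallest change, and 8 of the 15 were not called. The list median there was 0.15, beside 0.01 over all clusters. In shRUNX1 cells at 24 hr 1 rose (COL4A1) and 3 fell (KIT, LAMA1 and ONECUT1). Called at this time were 15.7% of all tested clusters in shNS and 10.9% in shRUNX1 cells. Between the arms PRDM1 alone was called, at 72 hr, lower in shRUNX1 by 0.81 (SE 0.21, adjusted p = 0.0477).

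Of 19 markers of trophoblast and amnion, 17 were measured. In shNS cells 6 rose at 8 hr, 6 at 24 hr and 7 at 72 hr, with 0 falling at any of these times. Of all tested clusters 8.41%, 15.7% and 15.1% were called at these times. The keratins KRT8 (2.95, SE 0.24, adjusted p = 8.11e-08) and KRT18 (2.12, SE 0.23, adjusted p = 1.72e-06), TFAP2C (2.60, SE 0.45, adjusted p = 0.000156) and GATA3 (2.05, SE 0.32, adjusted p = 6.34e-05) led at 24 hr. The mean signal of the 17 ran from 6.20 to 6.31 on the shNS arrays at 0 hr, from 6.83 to 7.14 at 24 hr and from 6.83 to 7.13 at 72 hr. In shRUNX1 cells it ran from 6.34 to 6.41, from 6.70 to 6.82 and from 6.57 to 6.98. There 4 markers rose at 24 hr and 5 at 72 hr, beside 10.9% and 7.52% of all tested clusters called. On all 3 arrays of a group 6 of the 17 were above the array median in shNS and 5 in shRUNX1 cells at 0 hr, and 8 in each arm at 24 hr and at 72 hr. Between the arms KRT18 was called at 72 hr, lower in shRUNX1 by 1.03 (SE 0.23, adjusted p = 0.0287). In shNS cells at 24 hr 11 of the 17 markers were not called. Whether the cultures held trophoblast or amnion cells, with a part in the rise of the 3 factors, was not tested.

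Of 18 pluripotency genes, 17 were measured, and in shNS cells at 24 hr 9 fell and 0 rose, led by CRIPTO, the NODAL coreceptor, which fell by 3.02 (SE 0.38, adjusted p = 5.53e-06), and TERF1, which fell by 2.96 (SE 0.47, adjusted p = 6.62e-05). In shRUNX1 cells 6 fell and 0 rose at 24 hr, and 5 fell and 1 rose (PRDM14) at 72 hr. Of all tested clusters 15.7% were called in shNS cells at 24 hr, and 10.9% and 7.52% in shRUNX1 cells at 24 and 72 hr. The mean signal of the 17 ran from 10.91 to 11.30 on the shNS arrays at 0 hr and from 9.97 to 10.15 at 24 hr, and from 10.98 to 11.40 and from 10.11 to 10.92 in shRUNX1 cells. CRIPTO was higher in shRUNX1 than in shNS cells at 24 hr by 1.95 (SE 0.38, adjusted p = 0.0415). Of 14 neuroectoderm genes 13 were measured. At 24 hr 5 fell and 2 rose in shNS cells, and 4 fell and 2 rose in shRUNX1 cells, beside the same shares of all tested clusters. By size in either direction, the largest changes in shNS cells were those of FEZF1, ZIC2, NES and HESX1, in that order. The change was -3.42 for FEZF1 (SE 0.63, adjusted p = 0.000298) and -2.40 for HESX1 (SE 0.36, adjusted p = 3.67e-05). FEZF1 was 2.83 higher in shRUNX1 than in shNS cells at 72 hr (SE 0.63, adjusted p = 0.0271). All 8 endothelial and blood markers were measured, and 1 was called, CDH5. It rose by 0.64 in shNS cells at 72 hr (SE 0.17, adjusted p = 0.00756), where 15.1% of all tested clusters were called. It was lower in shRUNX1 by 0.64 at that time (adjusted p = 0.0495). Between the arms 0.114% of all tested clusters were called at 24 hr and 1.6% at 72 hr. All these lists were chosen with earlier results of these data known, and their counts are descriptions.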

How the data were processed

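The authors extracted total RNA with Trizol. Their methods name Affymetrix Expression Console, a signal-space transformation, a leveling of GC content and version 1.0.0.234 of Transcriptome Analysis Console, and the submitters' processing notes name RMA. The deposited table holds log2 signals, normalized by the authors, of each transcript cluster, and no further normalization was applied. The genome build of the array annotation is not given in the sources used here. Of 70523 rows, 67528 are transcript clusters, of which 23781 with exactly 1 symbol were tested and 1543 with 2 or more were not.

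Differences were tested two-sided with limma 3.58.1 in R 4.3.3, using lmFit on 8 group means (16 residual degrees of freedom) and eBayes with a trend on intensity, with Benjamini-Hochberg adjustment over the 23781 clusters in each of 13 comparisons. Single values were compared with an exact permutation test. The study describes replicates as independent experiments, and precision is limited by the number of arrays.

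The members, lists and tests were chosen with earlier results of these data known. Named genes are the 10 members, RUNX1, markers of undifferentiated hESCs, up to 4 genes per list with the largest called changes, and the 3 clusters most correlated with each called member. AFP, COL4A1, CXCR4 and PRDM14 were named after their values were seen. Alternatives were quantile normalization, median centring, a filter on dim clusters, all clusters, no trend, only the arrays compared, the methods' ANOVA, no fold threshold, replicate blocks and each array left out. Promoter words were searched in Python 3.11.15, and figures drawn with matplotlib 3.10.9. Uninfected cells were not analysed here.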

Additional observations from a re-analysis of the deposited data

How the results depend on the processing

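Quantile normalization, median centring, all transcript clusters and eBayes without trend changed no member's call in any of the 13 comparisons, and no member reversed its direction while called. Without a fold threshold HAND1 was added in shNS cells at 24 hr (adjusted p = 0.0276). No member has a second cluster, so that alternative was not run. In shNS cells at 8 hr GATA6 became the 1 called member without dim clusters (adjusted p = 0.0438), with only the arrays compared (0.0498), without the shRUNX1 arrays of letter D (0.0192) and without those of letter C (0.0467), both chosen after seeing the data. Without dim clusters, those above the array median on fewer than 3 of 24 arrays, TBX3 and HAND1 were not tested, so 1 member was called in shNS cells at 24 hr and 1 at 72 hr (GATA6) and 0 in shRUNX1 cells at 72 hr. With only the arrays compared 0 were called in shRUNX1 cells at 24 hr (GATA6 adjusted p = 0.0542). The methods' ANOVA called 0 there (GATA6 0.212) and 0 in shRUNX1 cells at 72 hr (HAND1 0.165), and HAND1 also lost its call in shNS cells at 72 hr (0.0870). Without the letter C arrays of shRUNX1, 0 were called in shRUNX1 cells at 72 hr (HAND1 0.0680). Without those of letter D, 1 member was called between the arms at 24 hr (MIXL1), 2 at 72 hr (GATA6 and TBX3), and 1 in the change of the arm difference at 72 hr (TBX3), while in shRUNX1 cells at 24 hr GATA6 was lost (0.0602) and MIXL1 called (0.0475). The causes were not tested.

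Over the 24 fits that left out 1 array, the number of called members was 0 to 2 between the arms at 72 hr, 0 to 1 for the change of the arm difference at 72 hr, 0 to 1 in shNS cells at 8 hr, 2 to 3 in shNS cells at 24 hr and 2 to 3 at 72 hr, and did not change in the other 8 comparisons. The 2 between the arms and the 1 in the change of the arm difference came without shRUNX1 replicate 2 at 72 hr. In shRUNX1 cells at 24 hr the number stayed at 1, but without replicate 2 of that time the called member was MIXL1 in place of GATA6.

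With the array median taken over all transcript clusters, 4, 3 and 5 members were above it on all 3 arrays in shNS cells at 0, 8 and 24 hr and 4 in shRUNX1 cells at 8 hr. By the group mean against the mean array median, 2 and 3 were above in shNS cells at 0 and 8 hr and 2 and 4 in shRUNX1 cells at 8 and 24 hr.

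Arrays with the same replicate number in 1 arm correlated in their deviations from the group means at -0.09 to 0.53 across times, over 0.1 in 22 of 36 pairs (median 0.16, against -0.11 between other numbers), and 21 of 24 arrays correlated best with their own number. Between the arms at 1 time, the median was 0.14 for the same title number (over 0.1 in 7 of 12 pairs) and -0.06 for other numbers. For the shared letter C it was -0.095. This is a hint from the data, not the design, that arrays of 1 number share something, and since not every pair was over 0.1 the main results have no block. With a replicate block by title number 1 member was called in shNS cells at 8 hr (GATA6, adjusted p = 0.0426), with a block by letter 1 (0.0303) and with a random block by letter 1 (0.0448), and the block changed no other call.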
